A study of Mus musculus with 18 samples.

Results

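Bile acid synthesis and bile transport were followed through 33 mouse genes chosen by name: 14 enzymes of synthesis and conjugation, 14 transporters and 5 regulators, out of 37315 genes in the deposited count table. Polyadenylated RNA from the livers of C57BL/6J mice was sequenced in 18 libraries, in 6 groups of 3. At 2, 8 and 16 weeks of age 1 group received asparaginase (the preparation Elspar, an enzyme drug that removes asparagine from the blood) and the other an equal volume of phosphate-buffered saline (PBS). Injections were intraperitoneal, once each morning at 3 IU per g of body weight, 7 in all at 2 and 16 weeks and 8 at 8 weeks, and livers were taken 7.5 h after the last one. The labels name no transgene or deletion. All groups held both labelled sexes, with 1 library of the rarer sex in each. The rarer sex was female in the 2-week PBS and the adult asparaginase groups and male in the others. Sex and treatment are thus partly confounded at each age. The series text gives 3 mice per group, kept on this background for at least 8 generations. Libraries are named by age, treatment and replicate, and replicate numbers follow the order of deposition. The design asks whether asparaginase changes the genes and whether the change depends on age.

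Hepatocytes turn cholesterol into bile acids by a chain of microsomal, mitochondrial and peroxisomal enzymes, couple the acids to taurine or glycine, and pump them across the canalicular membrane together with phospholipid and cholesterol. Acids that return in portal blood are taken up again across the sinusoidal membrane. The nuclear receptor FXR (Nr1h4) senses bile acids and induces Nr0b2 and the export pump Abcb11, while FGF15 from the gut acts on FGFR4 with its co-receptor KLB to lower synthesis. Rodent liver also makes muricholic acids with Cyp2c70, and several uptake carriers and hydroxylases of mouse liver are known to differ between the sexes.

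Total counts lay between 24690871 and 46949361 per library. Of the 33 members 32 passed the filter on low counts and were tested among 16213 genes. The words rose and fell are kept for genes where the Benjamini-Hochberg adjusted p of edgeR's quasi-likelihood test, taken over those 16213 genes, was under 0.05. Values in CPM are read counts relative to each library's TMM-adjusted total. Statements on whether groups overlap use these values, which are not adjusted for sex, while the edgeR estimates are. The major urinary protein genes took 0.05% to 0.58% of counts at 2 weeks and 5.39% to 47.91% in adults, so CPM on plain library totals gives other levels, and the directions that then turn are named beside the results. Some libraries stood apart. Transcripts of both sexes were present in 3 libraries of 2 weeks (PBS replicates 1 and 2 and asparaginase replicate 3). The 12 squamous epithelium markers summed to 874 CPM in 8-week asparaginase replicate 1 and 457 CPM in replicate 2, against 1.46 to 6.98 CPM in 8-week PBS. The 10 pancreatic acinar markers summed to 2160 CPM in 16-week asparaginase replicate 3. Defining hepatocyte markers (Alb, Apoa1, Ttr, Cps1, Fgb and Tat) summed to between 51900 and 94300 CPM, and the 10 cholangiocyte markers to between 37.2 and 67.8 CPM over all 18 libraries. In bulk liver, fewer cells of a type and less RNA per cell cannot be told apart.

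The members spanned a wide range of levels. Per kilobase of exon in 8-week PBS livers, the peroxisomal thiolase and sterol carrier gene Scp2 was highest at 707 ± 249 CPM per kb (SD, n = 3). The bile acid CoA ligase Slc27a5 followed at 293 ± 56.6 CPM per kb, the sodium-coupled uptake carrier Slc10a1 at 240 ± 61.8 and the organic anion carrier Slco1b2 at 182 ± 43.9. The last 3 of these neighbours in the order differed by less than their summed SDs. At the low end were the basolateral efflux pump Abcc4 at 0.791 ± 0.0268 CPM per kb and Slc51b, the β subunit of the organic solute transporter OSTα-OSTβ, at 0.252 ± 0.137 CPM per kb. The α subunit gene, Slc51a, had 37 counts in all 18 libraries, 31 of them in 2-week asparaginase replicate 2, and was not tested. Its exons overlap those of Pcyt1a on the opposite strand over 567 bases. The enterocyte markers Vil1 and Cdh17 were also highest in 2-week asparaginase replicate 2, at 6.29 and 4.26 CPM. The part of intestinal transcripts in the Slc51a counts was not tested.

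Stretches upstream of the start sites are shown for the members on which the comparisons turn, from RefSeq (GRCm38.p6). Matches in promoter windows are reported for 24 members, 29 windows in all. There were no entries for Cyp7a1, Cyp7b1, Cyp39a1, Amacr, Slc27a5, Baat and Abcc3. The 2 other members, Hsd17b4 and Atp8b1, were left out of these windows, and the member shares below do not cover them. Capitals mark matches, on either strand, to 6 motifs: AGATAA (the family of GATA-binding factors), CAAGGNCA (NR5A2), AGGTCA (many nuclear receptors), CAAAGTCCA (HNF4A), TTCNNNGAA (STAT5) and TGATGNAA (C/EBP-ATF). In the 250 bases before the start, these letters stood in 9.99%, 5.53%, 14.0%, 0.384%, 7.02% and 3.45% of all 32851 promoter windows, in that order. Among the 29 member windows the shares were 17.2%, 10.3%, 41.4%, 6.9%, 17.2% and 3.45%. These windows are not independent. Those of Abcg5 and Abcg8 cover shared bases with shared GATA matches, and Nr5a2, Slc10a1, Acox2, Abcc4 and Abcg8 have 2 windows each. A match describes the letters only, and its part in any result was not tested.

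Abcg5 and Abcg8, subunits of 1 sterol pump, lie head to head, and the whole stretch between their starts is short (chr17:84683012-84683120, written on the plus strand, the strand of Abcg8). It is shown because both genes were lower at 16 weeks. Both of its matches are to the GATA motif, written on the reverse strand.
Abcg5-Abcg8: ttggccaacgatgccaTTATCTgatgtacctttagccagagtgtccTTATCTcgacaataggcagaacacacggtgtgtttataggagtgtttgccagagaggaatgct

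Abcb4, which flips phosphatidylcholine into bile, was the member called at 2 weeks. The 250 bases before its start hold none of the 6 motifs (chr5:8893471-8893720, plus strand).
Abcb4: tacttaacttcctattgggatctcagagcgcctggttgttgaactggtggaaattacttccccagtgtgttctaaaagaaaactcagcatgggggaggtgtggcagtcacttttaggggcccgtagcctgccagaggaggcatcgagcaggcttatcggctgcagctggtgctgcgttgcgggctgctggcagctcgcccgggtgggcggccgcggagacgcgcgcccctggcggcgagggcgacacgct

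Cyp8b1, the 12α-hydroxylase that sets the share of cholic acid, differed between PBS livers of 8 and 16 weeks. Its upstream stretch holds an HNF4A match that runs into an NR5A2 match, sharing bases with it (chr9:121916306-121916555, minus strand).
Cyp8b1: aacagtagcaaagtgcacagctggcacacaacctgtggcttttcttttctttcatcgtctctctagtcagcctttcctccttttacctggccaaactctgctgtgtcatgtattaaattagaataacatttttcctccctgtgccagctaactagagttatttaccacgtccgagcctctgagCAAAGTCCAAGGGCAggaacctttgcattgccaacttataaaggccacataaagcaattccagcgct

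Slco1a1 and Slco1a4, neighbouring organic anion carriers on the minus strand of chromosome 6, had opposite sex bias and opposite changes with age. The stretch before Slco1a1 holds 2 AGGTCA matches (chr6:141946963-141947212), and that before Slco1a4 holds none of the 6 motifs (chr6:141856221-141856470).
Slco1a1: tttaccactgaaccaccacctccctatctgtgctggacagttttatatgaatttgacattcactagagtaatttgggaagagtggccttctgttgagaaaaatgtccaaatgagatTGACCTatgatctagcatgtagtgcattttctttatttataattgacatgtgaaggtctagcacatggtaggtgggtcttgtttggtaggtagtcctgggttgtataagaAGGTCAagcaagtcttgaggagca
Slco1a4: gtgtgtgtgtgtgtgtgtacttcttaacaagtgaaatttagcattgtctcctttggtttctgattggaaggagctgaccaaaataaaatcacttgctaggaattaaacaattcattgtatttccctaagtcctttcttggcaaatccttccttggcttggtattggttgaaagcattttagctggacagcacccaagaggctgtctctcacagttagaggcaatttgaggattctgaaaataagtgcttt

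Nr0b2 (SHP), the FXR-induced repressor of synthesis, fell on the mean of the ages. Its upstream stretch holds an NR5A2 match and a STAT5 match (chr4:133553126-133553375, plus strand).
Nr0b2: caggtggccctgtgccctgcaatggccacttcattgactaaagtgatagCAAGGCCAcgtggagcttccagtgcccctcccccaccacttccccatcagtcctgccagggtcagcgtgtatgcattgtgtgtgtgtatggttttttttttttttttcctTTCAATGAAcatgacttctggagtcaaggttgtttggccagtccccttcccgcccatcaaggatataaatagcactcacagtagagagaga

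Asparaginase moved few members at any single age. At 2 weeks 1 of 32 tested members rose and 0 fell, where 0.432% of all tested genes were called (0.327% higher and 0.105% lower). At 8 weeks 0 members were called by edgeR (0.364% of all genes), 11 had an unadjusted p under 0.05 (18.4% of all genes did), limma-voom called 0 and DESeq2 called 4 (Cyp39a1, Scp2, Slco1a1 and Hsd3b7), where it called 4.06% of all genes. At 16 weeks 1 rose and 1 fell, where 0.234% of all genes were called (0.191% higher and 0.0432% lower). DESeq2 called 6 members there (Cyp39a1, Abcb4, Abcg5, Abcg8, Akr1d1 and Cyp2c70), and 1.98% of all genes. The groups did not overlap in 5 members at 2 weeks (2 higher and 3 lower), where 16.7% of all tested genes separated so (8.09% higher and 8.64% lower). They did not overlap in 5 members at 8 weeks (4 higher and 1 lower, against 15.9%, 7.29% and 8.57% of all genes) and in 10 at 16 weeks (3 higher and 7 lower, against 19.7%, 10.1% and 9.63%). The median log2 fold change of the tested members was -0.05, -0.11 and -0.15 at the 3 ages, against -0.01, 0.01 and 0 over all tested genes.

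**Figure D1:**
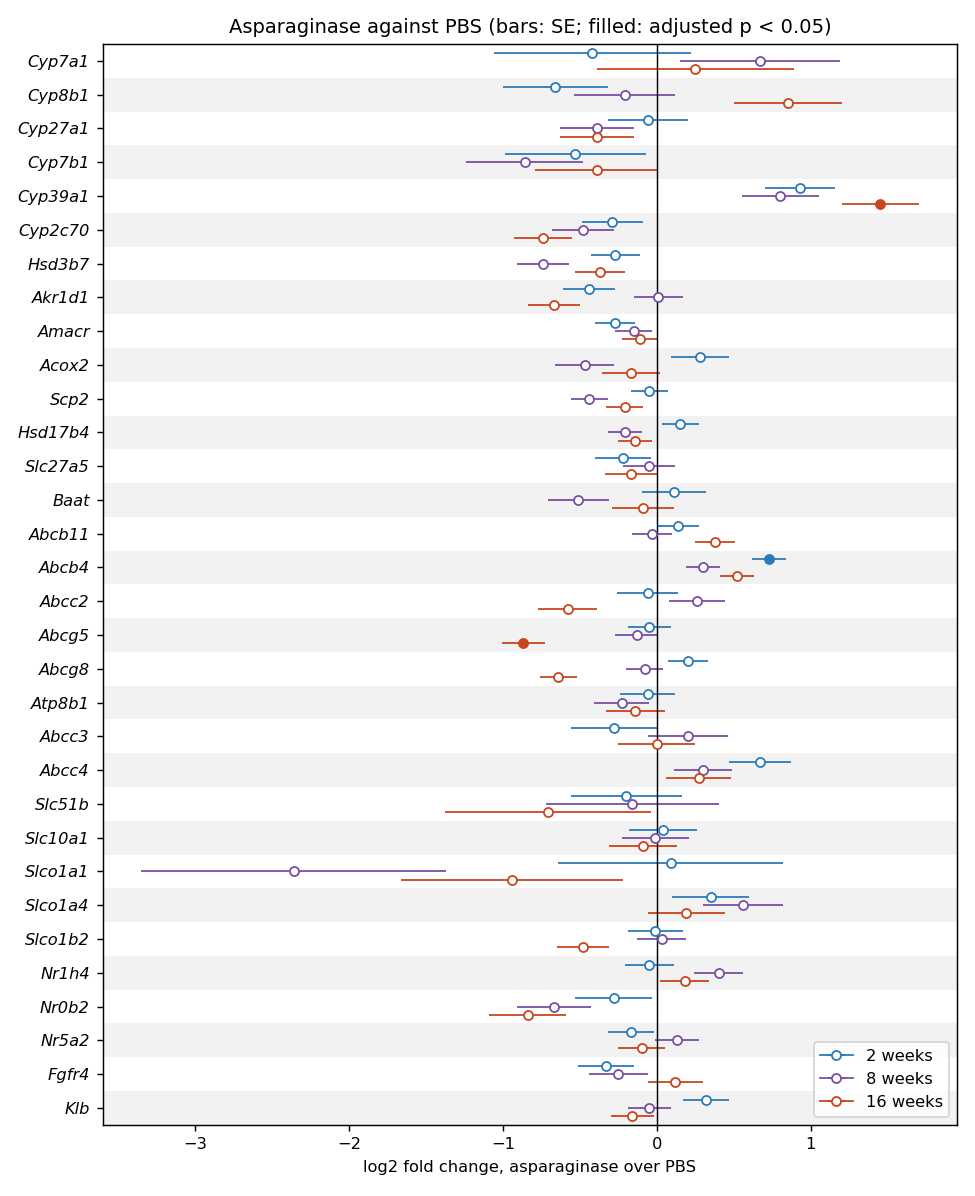
Log2 fold change of asparaginase over PBS for the 32 tested members at 2, 8 and 16 weeks; points are estimates of the edgeR fit, bars their standard errors, and filled points passed an adjusted p of 0.05. Filled points are Abcb4 at 2 weeks (0.73) and Cyp39a1 (1.45) and Abcg5 (-0.87) at 16 weeks, and Cyp39a1 and Abcb4 lie right of 0 at all 3 ages.

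Among the enzymes, Cyp39a1, the 7α-hydroxylase of 24-hydroxycholesterol (chr17:43667425-43751431, plus strand), was the one that rose. At 2 weeks it stood at 82.8, 115 and 108 CPM in PBS libraries and at 201, 207 and 178 CPM with asparaginase. At 8 weeks the PBS libraries held 26.5, 27.9 and 24.3 CPM and the asparaginase libraries 35.3, 56.8 and 65.0 CPM. At 16 weeks the levels were 44.8, 33.3 and 14.0 CPM in PBS livers and 41.9, 63.8 and 78.3 CPM in asparaginase livers. The groups did not overlap at 2 and 8 weeks. At 16 weeks they overlapped across sexes but not within either sex: the PBS female libraries (44.8 and 33.3 CPM) lay below the asparaginase female library (78.3 CPM), and the PBS male library (14.0 CPM) below the asparaginase male libraries (41.9 and 63.8 CPM). The log2 fold change was 0.93 (SE 0.23, edgeR adjusted p = 0.111) at 2 weeks, 0.80 (SE 0.25, adjusted p = 0.122) at 8 weeks and 1.45 (SE 0.25, adjusted p = 0.036) at 16 weeks. The 16-week call was lost, among others, without a sex term (log2 1.00, edgeR adjusted p = 0.335), without PBS replicate 3 (1.00, adjusted p = 0.501) and without PBS replicate 2 (1.42, adjusted p = 0.131). It was lost without asparaginase replicate 1 (1.52, adjusted p = 0.0707) and without asparaginase replicate 3 (1.92, adjusted p = 0.104). The fit without the mixed 2-week libraries, which keeps all libraries of 16 weeks, lost it too.

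Averaged over the ages, Cyp39a1 rose by a log2 fold change of 1.06 (SE 0.14, adjusted p = 0.00221), or 2.09-fold. This call was made under all 29 alternative settings, with estimates between 0.91 and 1.28. On this mean effect 7 of 32 members were called, 2 higher and 5 lower, where 5.41% of all tested genes were called (2.55% higher and 2.86% lower). The median member stood at -0.14 and the median tested gene at 0.

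Of the 14 enzymes, 3 fell on the mean of the ages. Cyp2c70, the enzyme of muricholic acid formation, fell by 0.51 on the log2 scale (SE 0.11, edgeR adjusted p = 0.0254). Its libraries separated at 16 weeks, at 465, 410 and 315 CPM in PBS livers and 207, 209 and 236 CPM in asparaginase livers. They overlapped at 2 weeks (328, 377 and 424 against 229, 460 and 416 CPM) and at 8 weeks (360, 201 and 324 against 184, 208 and 174 CPM). The second step of synthesis, the sterol dehydrogenase gene Hsd3b7, fell by 0.46 on the log2 scale (SE 0.10, edgeR adjusted p = 0.0186). Its exons are overlapped by those of Gm49388 on the same strand and 9430064I24Rik on the opposite strand. Neither is in the count table, so reads from them cannot be told apart from its own. Hsd3b7 stood at 450, 430 and 416 CPM in PBS livers and 220, 296 and 309 CPM in asparaginase livers at 8 weeks, without overlap. At that age 4 of 10 marker lists also lay lower with asparaginase without overlap: Kupffer cell (170 to 208 against 226 to 399 CPM), erythroid (142 to 191 against 284 to 329 CPM), cholangiocyte (37.2 to 46.7 against 46.8 to 61.8 CPM) and enterocyte markers (34.2 to 42.5 against 60.3 to 68.3 CPM). Of the 5 enterocyte markers, Fabp6 had no count in 15 of 18 libraries and Cdh17 none in 10. Fabp2 alone held 21.2 to 69.5 CPM over all libraries, where the whole enterocyte list summed to 21.6 to 69.9 CPM. That list thus rests largely on 1 gene, although Slc10a2 reached 14.6 CPM, Vil1 6.29 CPM and Cdh17 4.26 CPM at most. Slc10a2 is in both the enterocyte and the cholangiocyte list, and Spp1 held 19.4 to 41.1 CPM of the cholangiocyte sums. Squamous markers lay higher with asparaginase at 8 weeks, and the part of these lists in the 8-week values was not tested. Akr1d1, the steroid 5β-reductase, fell by 0.36 on the log2 scale (SE 0.10, adjusted p = 0.0469). Its asparaginase libraries lay below all PBS libraries at 2 weeks (159, 184 and 187 against 251, 255 and 212 CPM) and 16 weeks (84.2, 89.8 and 122 against 172, 230 and 133 CPM), but not at 8 weeks (194, 138 and 147 against 202, 160 and 140 CPM). These falls held in direction under all 29 alternatives and kept their call in 20 of 29 for Cyp2c70, 20 of 29 for Hsd3b7 and 10 of 29 for Akr1d1. On plain library totals, which raise the median of all genes by 0.214 on this mean effect, they stood at -0.29, -0.24 and -0.14 and none was called.

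The enzymes at the entry of both routes were not called in any asparaginase comparison by edgeR or DESeq2. Cyp7a1, the rate-limiting 7α-hydroxylase of the classical route, had a log2 fold change of -0.42 (SE 0.64) at 2 weeks, 0.67 (SE 0.52) at 8 weeks and 0.25 (SE 0.64) at 16 weeks. Its libraries spread widely: the 2-week PBS libraries held 322, 123 and 82.0 CPM, the 8-week PBS libraries 86.2, 358 and 98.6 CPM, and the 16-week PBS libraries 256, 472 and 145 CPM. Its within-group SD of 0.74 on the log2 scale, after the sex term, lay at percentile 95.7 of all tested genes. The 2-week library with the highest Cyp7a1, PBS replicate 1, also held 5480 CPM summed over 21 cholesterol synthesis and uptake genes, where the remaining libraries of that age held 607 to 1170 CPM. In the fit without it, Cyp7a1 at 2 weeks stood at 0.05. Cyp27a1, the mitochondrial 27-hydroxylase of the alternative route, stood at -0.06 (SE 0.26), -0.39 (SE 0.24) and -0.39 (SE 0.24) at the 3 ages. Cyp7b1, its oxysterol partner, stood at -0.53, -0.86 and -0.39, with SEs of 0.46, 0.38 and 0.40. Cyp8b1 stood at -0.66 (SE 0.34) at 2 weeks, -0.21 (SE 0.33) at 8 weeks and 0.85 (SE 0.35) at 16 weeks, where asparaginase libraries (189, 156 and 120 CPM) lay above PBS libraries (35.4, 108 and 89.0 CPM) with an adjusted p of 0.393.

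The other 6 enzymes, Amacr, Acox2, Scp2, Hsd17b4, Slc27a5 and Baat, act in side-chain shortening and conjugation and gave no edgeR call with asparaginase. Their estimates lay between -0.51 (Baat at 8 weeks) and 0.28 (Acox2 at 2 weeks). Scp2 at 8 weeks came nearest, at -0.44 (SE 0.12, edgeR adjusted p = 0.0911).

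**Figure D2:**
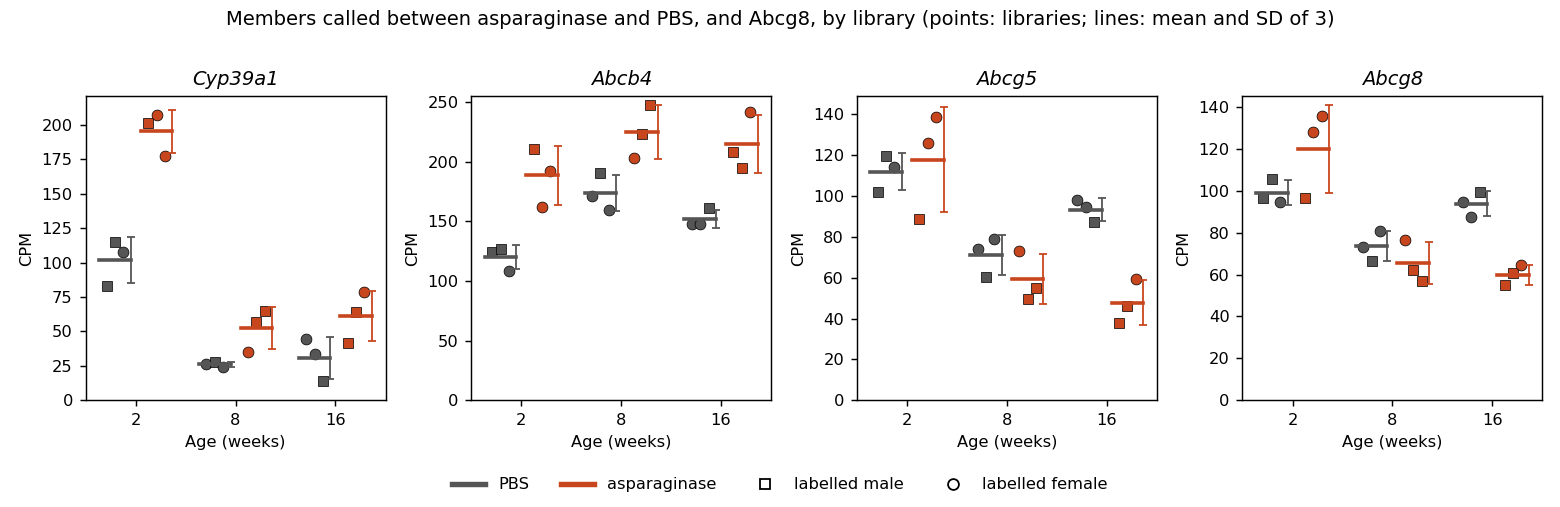
CPM of Cyp39a1, Abcb4, Abcg5 and Abcg8 in each of the 18 libraries by age (weeks); grey is PBS, orange is asparaginase, squares are labelled male and circles female, and lines give the mean and SD of 3 libraries. Abcb4 lies higher with asparaginase at each age without overlap, and Abcg5 and Abcg8 lie lower without overlap at 16 weeks and overlap at 2 and 8 weeks.

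Among the 14 transporters Abcb4 (chr5:8893717-8959231) rose at 2 weeks, from 125, 127 and 109 CPM with PBS to 211, 162 and 193 CPM with asparaginase. The groups did not overlap, and the log2 fold change was 0.73 (SE 0.11, edgeR adjusted p = 0.017), or 1.65-fold. At 8 weeks it stood at 172, 190 and 160 CPM against 203, 223 and 248 CPM (log2 0.30, SE 0.11, adjusted p = 0.191). At 16 weeks it stood at 148, 148 and 161 CPM against 208, 195 and 242 CPM (log2 0.52, SE 0.11, adjusted p = 0.0933). All asparaginase libraries of an age thus lay above all PBS libraries of that age. On the mean of the ages Abcb4 rose by 0.51 (SE 0.06, adjusted p = 0.00154), a call made under all 29 alternatives (0.45 to 0.73). The 2-week call was lost without any single 2-week PBS library (edgeR adjusted p = 0.0565, 0.0827 and 0.0607 without replicates 1, 2 and 3) and without asparaginase replicate 1. It was also lost on plain library totals, without a sex term, and without the mixed or the squamous libraries. Of these, the fit without the mixed libraries leaves replicate 3 as the only 2-week PBS library. The estimates lay between 0.65 and 0.76 over all alternatives. At 2 weeks the 6 hepatocyte markers summed to 51900 to 83800 CPM with asparaginase and 85000 to 94300 CPM with PBS, and the 10 acinar markers to 350 to 965 CPM against 2.64 to 76.8 CPM. Neither list's groups overlapped there, and their part in the Abcb4 result was not tested.

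The sterol pump subunits were lower at 16 weeks. Abcg5 (chr17:84658234-84683011, minus strand) stood at 98.2, 94.4 and 87.1 CPM in PBS livers and 38.01, 46.0 and 59.5 CPM in asparaginase livers, and fell by 0.87 on the log2 scale (SE 0.14, edgeR adjusted p = 0.0202), or 1.83-fold. Abcg8 (chr17:84676302-84700333, plus strand) stood at 94.4, 87.4 and 99.3 CPM in PBS livers and 54.9, 60.6 and 64.3 CPM in asparaginase livers. Its log2 fold change of -0.64 (SE 0.12) missed the threshold by edgeR (adjusted p = 0.0684) and passed it by DESeq2 (adjusted p = 0.000386). Neither gene's groups overlapped at 16 weeks. At that age the 10 cholangiocyte markers summed to 40.0 to 45.9 CPM with asparaginase and 50.2 to 52.3 CPM with PBS, and the 10 skeletal muscle markers to 2.74 to 19.6 CPM against 43.2 to 245 CPM, also without overlap. So did the 6 stellate cell markers (199 to 239 against 243 to 272 CPM) and the 5 enterocyte markers (29.4 to 39.4 against 48.0 to 63.9 CPM). Their part in the results of this age was not tested.

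At 2 weeks Abcg5 held 102, 120 and 114 CPM in PBS livers and 89.0, 126 and 139 CPM in asparaginase livers, and at 8 weeks 74.1, 60.3 and 78.9 CPM against 73.2, 49.7 and 54.9 CPM. The groups overlapped at both ages. The effect at 16 weeks minus that at 2 weeks was -0.82 (SE 0.20, edgeR adjusted p = 0.28) for Abcg5 and -0.84 (SE 0.18, adjusted p = 0.214) for Abcg8, so neither difference between ages passed the threshold. Exons of the pair overlap over 82 bases on opposite strands, and whether counting used strand is not given in the sources used here. The ratio of Abcg5 to Abcg8 counts ranged from 0.692 to 0.926 in 16-week asparaginase libraries and from 0.877 to 1.08 in 16-week PBS libraries. The Abcg5 call was made in 21 of 29 alternatives and lost, among others, without a sex term (-0.96, adjusted p = 0.0746), without asparaginase replicate 3, the library with the acinar transcripts (-1.05, adjusted p = 0.139), and without asparaginase replicate 1 (-0.79, adjusted p = 0.0842), PBS replicate 1 (-0.89, adjusted p = 0.0751) or PBS replicate 3 (-0.69, adjusted p = 0.5). On the mean of the ages Abcg5 fell by 0.35 (SE 0.08, adjusted p = 0.026), and on plain totals it stood at -0.14 and was not called.

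The other canalicular pumps gave no call. Abcb11, the bile salt export pump, held 360, 394 and 376 CPM in PBS livers and 521, 414 and 510 CPM in asparaginase livers at 16 weeks, without overlap (log2 0.38, SE 0.13, edgeR adjusted p = 0.29). Abcc2, the pump for conjugated bilirubin, went the other way at that age, with 308, 323 and 413 CPM against 265, 293 and 209 CPM (-0.58, SE 0.19, adjusted p = 0.273). Atp8b1, the aminophospholipid flippase, stood between -0.23 and -0.06 at the 3 ages.

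Of the basolateral exporters, Abcc3 stood between -0.28 and 0.20 and Abcc4 at 0.67 (SE 0.20), 0.30 and 0.27, with adjusted p = 0.169 at 2 weeks. Slc51b had 129 and 113 counts in the 2-week PBS and asparaginase groups, and at most 18 in an adult group. It was not called with asparaginase, at -0.16 (SE 0.56) at 8 weeks and -0.71 (SE 0.67) at 16 weeks.

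Of the uptake carriers, Slc10a1 differed least, between -0.09 and 0.04 at the 3 ages. Slco1a1 had the most extreme estimate of all members, -2.36 (SE 0.99, adjusted p = 0.233) at 8 weeks, and it rested on 1 library: asparaginase replicate 1, a female, held 7.22 CPM where the other asparaginase libraries held 515 and 337 CPM and the PBS libraries 107, 484 and 247 CPM. Without it the estimate was -0.18. The same library had the lowest major urinary protein share of all adults (5.39%) and the highest squamous sum, and their part in its Slco1a1 level was not tested. Slco1a4 stood at 0.35, 0.56 and 0.19 at the 3 ages, and Slco1b2 at -0.48 (SE 0.17, adjusted p = 0.295) at 16 weeks.

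Among the 5 regulators Nr0b2 was called, and only on the mean of the ages (-0.59, SE 0.14, edgeR adjusted p = 0.0327). At 16 weeks it stood at 16.3, 20.4 and 21.8 CPM in PBS livers and 8.72, 13.1 and 11.6 CPM in asparaginase livers, without overlap. At 8 weeks the values were 13.3, 24.7 and 15.8 CPM against 12.7, 13.3 and 9.04 CPM, and at 2 weeks 10.6, 9.79 and 16.5 CPM against 8.73, 16.2 and 10.1 CPM, with overlap at both. The call held in 14 of 29 alternatives and was lost, for example, without 8-week PBS replicate 2 (-0.44, adjusted p = 0.119). Its inducer Nr1h4 (FXR) was not called, with 82.6, 83.4 and 57.0 CPM against 93.4, 116 and 99.4 CPM at 8 weeks (log2 0.40, SE 0.16, adjusted p = 0.213). On plain library totals Nr1h4 passed as higher at 8 weeks (0.77, adjusted p = 0.0104). Nr5a2 (LRH-1, an activator of Cyp7a1 and Cyp8b1), Fgfr4 and Klb stayed between -0.33 and 0.32 at each age, without a call.

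**Figure D3:**
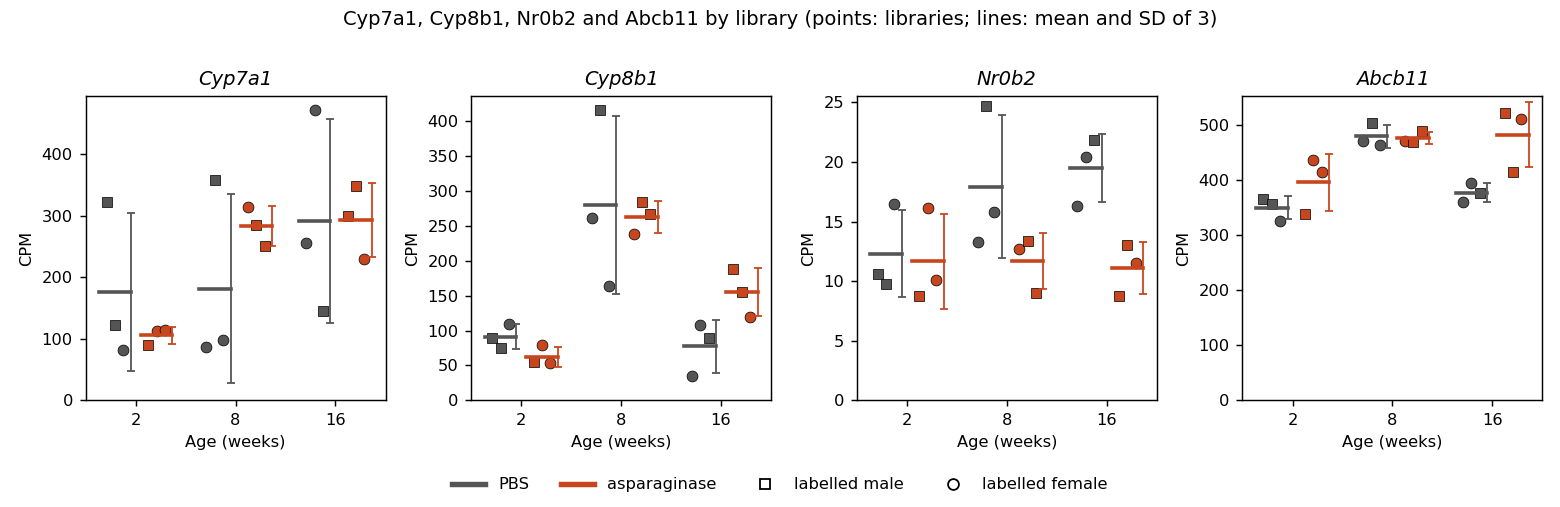
CPM of Cyp7a1, Cyp8b1, Nr0b2 and Abcb11 in each of the 18 libraries by age (weeks), drawn with the same colours and marks: grey PBS, orange asparaginase, squares labelled male, circles female, lines the mean and SD of 3. Cyp7a1 scatters within every PBS group (82.0 to 322 CPM at 2 weeks), while Cyp8b1 in PBS lies at 163 to 417 CPM at 8 weeks and 35.4 to 108 CPM at 16 weeks.

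Whether the effect of asparaginase depended on age was tested jointly over the 3 ages. By edgeR 0 of 32 members passed, where 0% of all tested genes did. An unadjusted p under 0.05 was reached by 6 members: Abcg8, Abcg5, Abcc2, Cyp8b1, Akr1d1 and Acox2, with edgeR adjusted p between 0.276 (Abcg8) and 0.518 (Acox2). In the joint test DESeq2 called 2 members, Abcg8 (adjusted p = 0.0105) and Abcg5 (adjusted p = 0.0135), where it called 0.956% of all genes, and limma-voom called 0. In the single difference of 16 minus 8 weeks 0 members were called by edgeR (7 at an unadjusted p under 0.05, 1 by DESeq2, Abcg5, and 0 by limma-voom), where 0.0123% of all genes were, all of them higher.

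Age in PBS mice moved many members. From 2 to 8 weeks 13 of 32 members rose and 7 fell, where 31.7% of all tested genes were called (14.8% higher and 16.9% lower). From 2 to 16 weeks 10 rose and 5 fell, where 27.8% of all tested genes were called (13.2% higher and 14.5% lower). Between 8 and 16 weeks 1 fell, where 0.413% were called (0.234% lower). The ages did not overlap in 19 members from 2 to 8 weeks (35.0% of all genes), 16 from 2 to 16 weeks (39.7%, of which 19.5% higher and 20.2% lower) and 8 from 8 to 16 weeks (16.3%, of which 8.18% lower). The first comparisons share the 2-week PBS libraries, of which 2 held transcripts of both sexes. The fit without the 3 mixed libraries leaves replicate 3 as the only PBS library of 2 weeks. It also has no 2-week sex term, so its calls are no like-for-like check of these comparisons. From 2 to 8 weeks the PBS sums of stellate (448 to 773 down to 188 to 311 CPM), endothelial (172 to 215 down to 122 to 159 CPM) and acinar markers (2.64 to 76.8 down to 0.364 to 1.08 CPM) were lower without overlap. Enterocyte (21.6 to 43.1 up to 60.3 to 68.3 CPM) and skeletal muscle markers (19.0 to 276 up to 289 to 791 CPM) were higher. At 16 weeks stellate (243 to 272 CPM) and endothelial sums (145 to 154 CPM) were again below and enterocyte sums (48.0 to 63.9 CPM) above those of 2 weeks, and muscle sums (43.2 to 245 CPM) were below those of 8 weeks. The enterocyte list has the limit given above, and the part of these lists in the age results was not tested.

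**Figure D4:**
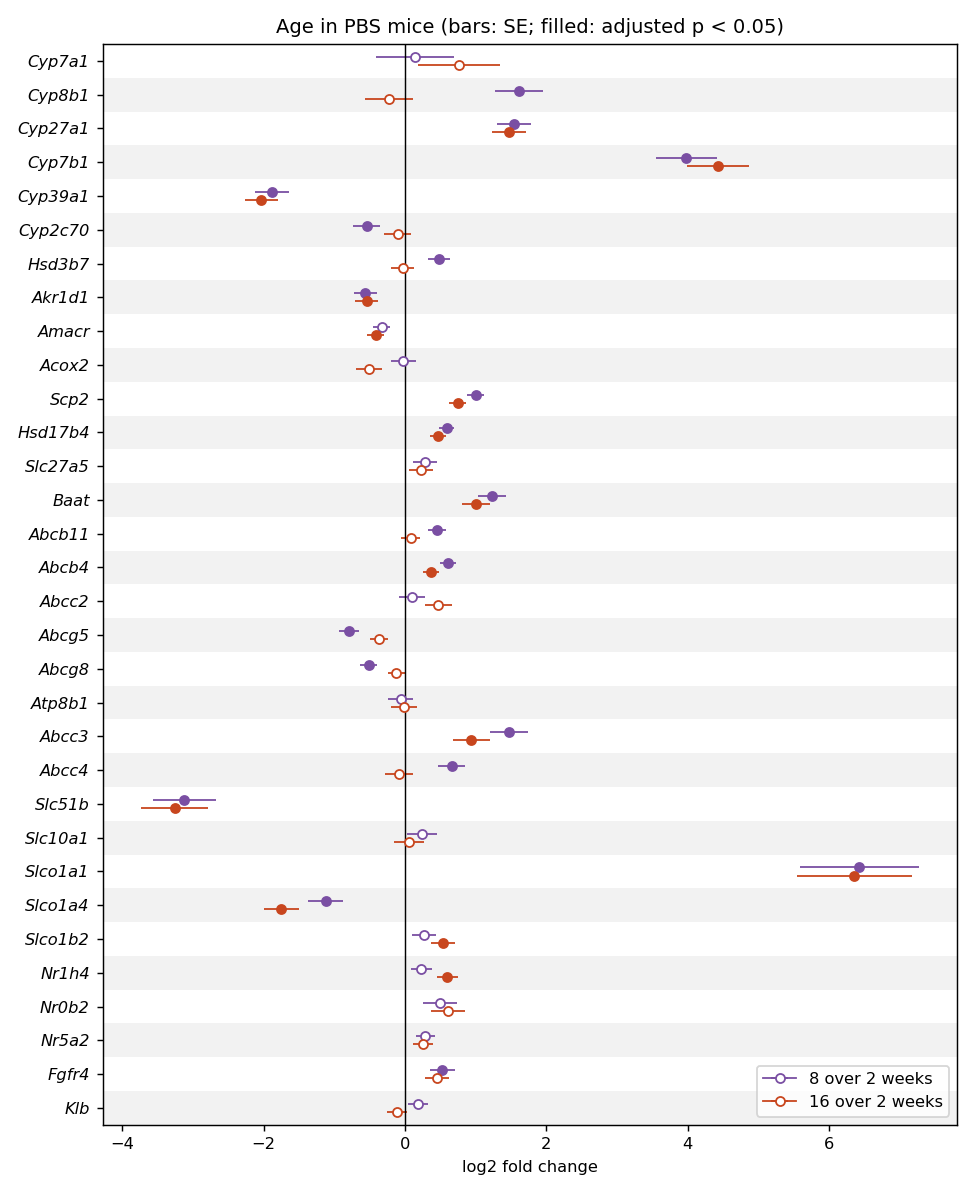
Log2 fold change between ages in PBS mice for the 32 tested members, 8 over 2 weeks and 16 over 2 weeks; bars are standard errors and filled points passed an adjusted p of 0.05. Slco1a1 (6.43 and 6.36) and Cyp7b1 (3.98 and 4.43) stand far to the right, and Slc51b (-3.12 and -3.26) and Cyp39a1 (-1.88 and -2.03) to the left.

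In synthesis the oxysterol hydroxylases moved in opposite directions. Cyp7b1 (chr3:18071950-18243338) stood at 6.04, 3.25 and 2.58 CPM at 2 weeks, 25.2, 159 and 19.1 CPM at 8 weeks and 23.8, 26.0 and 245 CPM at 16 weeks. All adult PBS libraries lay above all 2-week ones, and the highest adult values were those of the male libraries. It rose by 3.98 (SE 0.43, edgeR adjusted p = 7.09e-05) on the log2 scale from 2 to 8 weeks and by 4.43 (SE 0.44, adjusted p = 2.86e-05) to 16 weeks. Cyp39a1 fell by 1.88 (SE 0.24) and 2.03 (SE 0.24) on the same scale, from a mean of 102 ± 16.8 CPM (SD, n = 3) at 2 weeks to 26.2 ± 1.82 and 30.7 ± 15.6 CPM. Both genes were called in all 29 alternatives in both comparisons.

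Cyp27a1 rose from 194, 115 and 88.4 CPM at 2 weeks to 392, 378 and 296 CPM at 8 weeks (log2 1.55, SE 0.24, adjusted p = 0.00061) and 299, 327 and 378 CPM at 16 weeks (1.47, SE 0.24). The conjugating enzyme Baat rose by 1.23 (SE 0.20) to 8 weeks and 1.01 (SE 0.20) to 16 weeks, although 2-week PBS replicate 1 (158 CPM) overlapped the adult libraries (156 to 264 CPM). Scp2 rose by 1.00 (SE 0.12) and 0.75 (SE 0.12), and Hsd17b4, the peroxisomal bifunctional enzyme, by 0.59 (SE 0.11) and 0.47 (SE 0.11). On plain library totals, which lower the median of all genes by 0.713 and 0.791 in these comparisons, Hsd17b4 turned to -0.13 and -0.32 and Scp2 to -0.05 at 16 weeks.

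Cyp8b1 rose from 89.5, 74.6 and 110 CPM at 2 weeks to 261, 417 and 163 CPM at 8 weeks (log2 1.61, SE 0.34, adjusted p = 0.00379). At 16 weeks it was back at 35.4, 108 and 89.0 CPM, a fall from 8 weeks of 1.83 on the log2 scale (SE 0.34, adjusted p = 0.0474). Neither step had overlapping groups. The later fall lay close to the threshold and was called in 10 of 29 alternatives, with estimates between -2.33 and -1.49. Among those that lost it were the fits without 8-week PBS replicates 1 (adjusted p = 0.133) or 2 (adjusted p = 0.18), and without 16-week PBS replicates 1 (adjusted p = 0.0836) or 3 (adjusted p = 0.248). The asparaginase livers held 239, 284 and 266 CPM at 8 weeks and 189, 156 and 120 CPM at 16 weeks.

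Smaller calls among the enzymes were Akr1d1 (-0.56 and -0.54 to 8 and 16 weeks), Cyp2c70 (-0.54 to 8 weeks), Hsd3b7 (0.48 to 8 weeks, turned to -0.23 on plain totals) and Amacr, a racemase of the side chain (-0.41 to 16 weeks). Cyp7a1, Acox2 and Slc27a5 were not called with age. Cyp7a1 stood at 0.14 (SE 0.55) to 8 weeks and 0.77 (SE 0.58) to 16 weeks.

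Among the transporters Slco1a1 showed the widest change. It held 5.57, 7.08 and 4.02 CPM in 2-week PBS livers, 107, 484 and 247 CPM at 8 weeks and 271, 278 and 586 CPM at 16 weeks. It rose by 6.43 (SE 0.84, edgeR adjusted p = 0.000199) and 6.36 (SE 0.81, adjusted p = 0.00014) on the log2 scale. The asparaginase livers of 2 weeks were as low, at 5.10, 3.81 and 7.52 CPM. Slco1a4, its neighbour, fell from 235, 245 and 206 CPM to 163, 77.4 and 91.9 CPM at 8 weeks (-1.12, SE 0.25, adjusted p = 0.00522) and 116, 85.6 and 46.5 CPM at 16 weeks (-1.75, SE 0.25). Slco1b2 rose by 0.54 (SE 0.17) to 16 weeks and turned to -0.25 on plain totals. Slc10a1 was not called.

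Slc51b fell by 3.12 (SE 0.45, adjusted p = 0.000357) and 3.26 (SE 0.47, adjusted p = 0.000329) on the log2 scale. Its counts were few: 129 in the 2-week PBS group (95% Poisson interval 108 to 153), 18 at 8 weeks (10.7 to 28.4) and 17 at 16 weeks (9.9 to 27.2), where the intervals cover counting error only. Reads from Rasl12, whose exons overlap it over 91 bases on the opposite strand, cannot be told apart without strand.

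Abcc3, a basolateral pump for conjugated acids, rose from 97.9, 76.9 and 56.8 CPM to 206, 215 and 197 CPM at 8 weeks (log2 1.47, SE 0.27, adjusted p = 0.00153) and 127, 109 and 187 CPM at 16 weeks (0.94, SE 0.26). Abcb4 rose by 0.61 (SE 0.11) and 0.37 (SE 0.11), with the direction turned on plain totals (-0.11 and -0.42). Abcb11 (0.45) and Abcc4 (0.66) rose to 8 weeks and turned to -0.26 and -0.05 on plain totals. Abcg5 fell by 0.79 (SE 0.14, adjusted p = 0.00111) and Abcg8 by 0.51 (SE 0.12, adjusted p = 0.00765) to 8 weeks, without overlap for either. To 16 weeks Abcg5 stood at -0.37 (adjusted p = 0.0563). Abcc2 and Atp8b1 were not called with age.

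Of the regulators, Fgfr4 rose from 20 ± 2.5 CPM (SD, n = 3) to 28.5 ± 4.65 CPM at 8 weeks (log2 0.53, SE 0.18, adjusted p = 0.0383), and Nr1h4 from 81.0, 65.8 and 56.3 CPM to 104, 87.0 and 104 CPM at 16 weeks (0.60, SE 0.15, adjusted p = 0.0126). On plain totals Fgfr4 turned to -0.19 and Nr1h4 to -0.19. Nr0b2, Nr5a2 and Klb were not called.

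Sex was compared over the 12 adult libraries, 6 male and 6 female, of both treatments. Of the 32 members 5 were higher and 4 lower in males, where 12.9% of all tested genes were called (4.87% higher and 8.02% lower in males). The sexes did not overlap in 4 members, Cyp7b1, Scp2, Slco1a1 and Slc51b, where 4.17% of all tested genes separated so. The 6 hepatocyte markers also separated, at 52400 to 65200 CPM in males and 72500 to 93300 CPM in females, and their part in the sex results was not tested.

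Cyp7b1 ranged from 42.5 to 257 CPM in males (median 183) and from 12.3 to 26.0 CPM in females (median 21.5), a log2 difference of 3.23 (SE 0.29, edgeR adjusted p = 3.02e-05). Scp2 ranged from 2539 to 3456 CPM in males (median 2750) and from 1345 to 2020 CPM in females (median 1510), a difference of 0.95 (SE 0.08, adjusted p = 2.93e-05). The sexes lay apart in both genes, and both were called in all 28 alternatives that could give a sex effect. Once sex was accounted for, Scp2 varied little, with an SD of 0.08 on the log2 scale, at percentile 2.1 of all tested genes.

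Slco1a1 ranged from 337 to 586 CPM in males (median 487) and from 7.22 to 278 CPM in females (median 177), a difference of 2.67 (SE 0.60, adjusted p = 0.0149). Without the female library at 7.22 CPM, 8-week asparaginase replicate 1, the difference was 1.58 (adjusted p = 0.0227). Slco1a4 went the other way, at 36.8 to 145 CPM in males (median 62.0) and 85.6 to 174 CPM in females (median 139), a difference of -1.11 (SE 0.18, adjusted p = 0.00247) with overlapping ranges. The lowest Slco1a4 values were those of the 16-week males, at 46.5, 36.8 and 38.035 CPM, against 77.4, 101 and 145 CPM in the 8-week males. The difference of its sex effect between these ages was -1.01 (SE 0.36, edgeR adjusted p = 0.741).

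**Figure D5:**
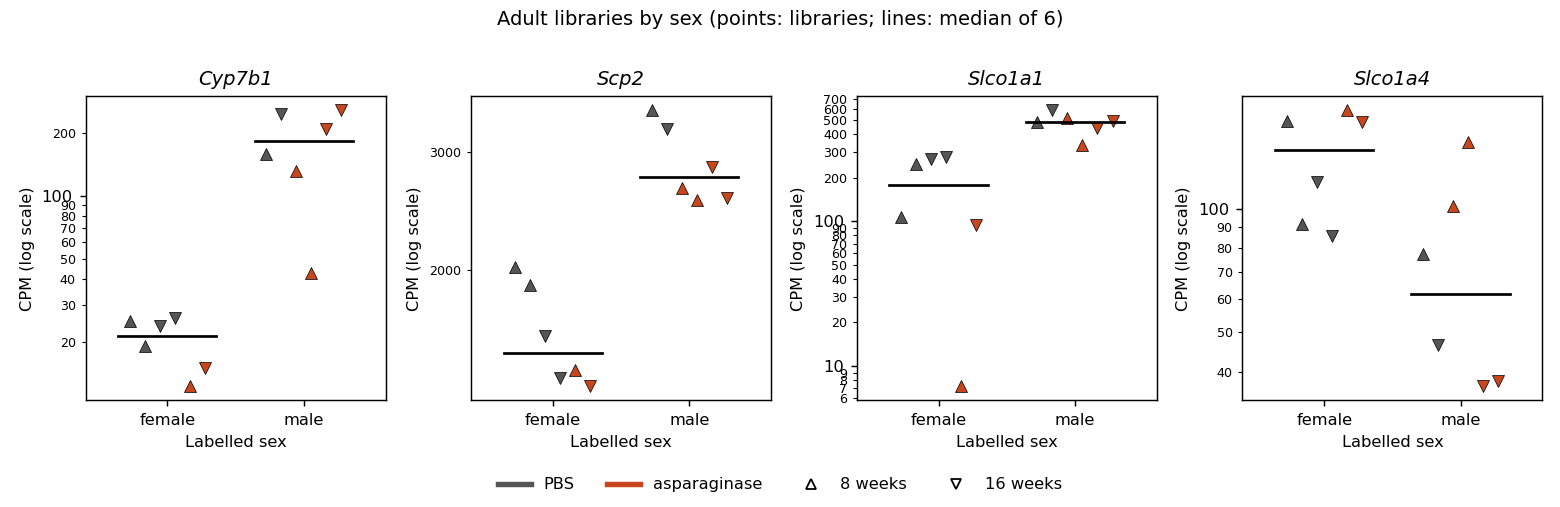
CPM on a log axis of Cyp7b1, Scp2, Slco1a1 and Slco1a4 in the 12 adult libraries by labelled sex; grey is PBS, orange is asparaginase, upward triangles are 8 weeks and downward triangles 16 weeks, and lines are medians of 6. Males lie above females without overlap in the first 3 genes, and the lone Slco1a1 point at 7.22 CPM is 8-week asparaginase replicate 1.

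Slc51b was lower in males (-1.69, SE 0.45, edgeR adjusted p = 0.0294), at 0 to 0.113 CPM against 0.148 to 0.287 CPM in females. These values rest on 0 to 4 counts per male library and 4 to 10 per female library. The limit from the Rasl12 overlap applies here too. The smaller calls were Acox2, the branched-chain oxidase (0.49, SE 0.13), and Hsd17b4 (0.37, SE 0.08), both higher in males, and Abcg5 (-0.37, SE 0.10) and Akr1d1 (-0.41, SE 0.12), both lower. On plain library totals, which lower the median of all genes by 0.509 here, Acox2 turned to -0.01 and Hsd17b4 to -0.14. Cyp39a1 was not called by sex over adults; its sex effect at 16 weeks minus that at 8 weeks was -1.48 (SE 0.35, edgeR adjusted p = 0.431). DESeq2 called that difference (-1.47, adjusted p = 0.00514), and the adjusted p lay between 0.155 and 0.997 under the other alternatives. No regulator was called.

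Beyond the members, other genes of the pathway were listed in 4 groups, of which 17 of 18 enzymes, 19 of 20 transport genes, 19 of 21 regulators and all 21 cholesterol synthesis and uptake genes were tested. With asparaginase 0 of each were called by edgeR and limma-voom at 2 weeks (2, 2, 0 and 7 at an unadjusted p under 0.05 by edgeR, and 1, 1, 0 and 3 called by DESeq2). At 16 weeks 0 were called as well (5, 1, 2 and 0 at an unadjusted p under 0.05, and 1, 0, 1 and 0 by DESeq2). At 8 weeks, where 0.364% of all genes were called, 1 of 17 other enzymes and 2 of 19 other transport genes were called: the acyltransferase Acnat2 fell by 0.76 (SE 0.14, adjusted p = 0.0411), Abcb1a, a drug efflux pump, rose by 1.28 (SE 0.23, adjusted p = 0.0411), and Abcg2, a pump for sulfated conjugates, fell by 0.59 (SE 0.11, adjusted p = 0.0428). Without the 2 squamous libraries these stood at -0.51, 0.91 and -0.54, and without the 3 mixed libraries at -0.74, 1.30 and -0.57, and in both fits 0 genes of all tested were called at 8 weeks. Abcb1a held 22.0 CPM in asparaginase replicate 1 and 3.91 to 7.37 CPM in the other 8-week libraries, and stood at 0.72 without that replicate.

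On the mean of the ages Slc27a2, a very long chain acyl-CoA synthetase, rose by 0.34 (SE 0.08), Akr1c6 fell by 0.59 (SE 0.15), Abcb1a rose by 0.65 (SE 0.14) and Tmem30a, the partner subunit of ATP8B1, fell by 0.37 (SE 0.10), where 5.41% of all genes were called. None of these 4 calls was made without the mixed, the squamous or the acinar libraries. Of 19 other regulators and 21 cholesterol genes 0 were called by edgeR on the mean effect (0 and 9 at an unadjusted p under 0.05), 0 of both by limma-voom and 0 and 2 by DESeq2. All 21 cholesterol genes had a negative estimate there, with a median of -1.02. The median was -1.59 at 2 weeks, where PBS replicate 1 held 5480 CPM and the other PBS libraries 1170 and 742 CPM, and the asparaginase libraries 607 to 727 CPM. It was -0.62 at 8 weeks (3060 to 3680 CPM with PBS and 2380 to 2490 CPM with asparaginase, without overlap) and -0.30 at 16 weeks (2090 to 4530 and 2100 to 2660 CPM, with overlap).

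With age in PBS mice, from 2 to 8 weeks 8 of 17 other enzymes rose and 2 fell, 5 of 19 transport genes rose and 3 fell, and 3 of 19 regulators rose and 3 fell, where 31.7% of all genes were called (14.8% higher and 16.9% lower). Of the 21 cholesterol genes 0 were called by edgeR (3 at an unadjusted p under 0.05), 1 by DESeq2 and 8 by limma-voom. The sulfotransferase Sult2a1 fell by 7.82 on the log2 scale (SE 0.83, edgeR adjusted p = 6.57e-05), from 826 to 862 CPM at 2 weeks to 0.099 to 65.8 CPM at 8 weeks. Its relative Sult2a8 rose by 1.68 (SE 0.30) and the microsomal epoxide hydrolase Ephx1 by 1.70 (SE 0.29). Among transport genes Abcb1a (-1.50, SE 0.23) and Scarb1, the HDL receptor (-0.82, SE 0.15), fell, and Abcg2 rose (0.52, SE 0.10) with overlapping groups. Of the regulators Ppargc1a, a co-activator of bile acid genes, fell by 1.57 (SE 0.24) and Zfp36l1 by 0.46 (SE 0.12). Nr1h3 rose by 0.38 (SE 0.11). On plain totals Abcg2 turned to -0.20 and Nr1h3 to -0.35. To 16 weeks the counts were 4 rises and 2 falls, 3 and 3, and 5 and 1 in the first 3 lists, in that order, where 27.8% of all genes were called.

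By sex in adults, 1 of 17 other enzymes was higher in males and 5 lower, and 1 of 19 transport genes was higher and 3 lower, with 0 of 19 regulators and 0 of 21 cholesterol genes called by edgeR (2 and 0 at an unadjusted p under 0.05, 1 and 0 by DESeq2, 0 and 0 by limma-voom). Over all genes 12.9% were called, 4.87% higher and 8.02% lower in males. Sult2a1 (-6.76, SE 0.61), Acnat2 (-1.34, SE 0.10) and Hsd17b6 (-1.30, SE 0.19) were lower in males, Abcg2 was higher (1.40, SE 0.08, adjusted p = 6.94e-07) and Abcb1a lower (-1.40, SE 0.17).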

How the data were processed

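Poly(A) RNA of 18 mouse liver libraries was measured as whole-number counts per Ensembl gene, in 1 table as the authors deposited it. The authors' tools, per the submitters' processing notes, included TopHat2 2.0.9 and DESeq2, on the builds GRCm38 and mm10. What each tool did, and the counter, annotation and strand setting, is not given in the sources used here. Per the labels' protocols, RNA of all ages went for library preparation and sequencing together. Gene positions and exon lengths came from GENCODE M21 (GRCm38), which matched 35533 of 37315 genes.

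Counts were fitted with edgeR 4.0.16 (R 4.3.3) by the quasi-likelihood test. Genes under the count minimum (10 per library, 15 in total, applied over the 6 groups) were left out, and libraries were TMM-scaled. The fit had 6 group terms and labelled sex within each age over all 18 libraries, with 9 residual degrees of freedom. P-values were adjusted by Benjamini-Hochberg over 16213 genes. Standard errors were taken as the size of the log2 fold change over the root of its F value. The mean effect weights the 3 ages equally, and the sex effect is the mean of the 8-week and 16-week terms. Depth was 24690871 to 46949361 counts. No pair of libraries was identical, and replicates differed beyond sampling noise. The 29 alternatives were DESeq2 1.42.0, limma-voom (limma 3.58.1), other scalings, filters and sex terms, and leaving out libraries. The fit without the acinar library and that without 16-week asparaginase replicate 3 are the same fit, counted under both names. All members are named, with values by library where called; other pathway genes are named only where called, at most 3 per list and comparison, by smallest p. Single-gene values for 2 of these are not reported here. Members and lists were chosen with earlier results of these data known.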

Additional observations from a re-analysis of the deposited data

Results flagged for a closer look

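Acnat2, a peroxisomal acyltransferase of the other-enzyme list, had an asparaginase effect that differed between 16 and 8 weeks in the test of the difference itself (1.43 on the log2 scale, SE 0.19, edgeR adjusted p = 0.0475). It held 27.5, 18.2 and 26.5 CPM in PBS livers and 13.5, 12.7 and 12.8 CPM in asparaginase livers at 8 weeks. At 16 weeks it held 43.1, 40.5 and 8.79 CPM in PBS livers and 10.9, 15.1 and 71.0 CPM in asparaginase livers. Its sex effect also differed between these ages in a test of that difference (-2.02, male minus female, 16 minus 8 weeks, SE 0.19, edgeR adjusted p = 0.00216). The 16-week females held 43.1, 40.5 and 71.0 CPM and the 16-week males 8.79, 10.9 and 15.1 CPM. The asparaginase female of 16 weeks (71.0 CPM) is the library with 2160 CPM of acinar markers, and that of 8 weeks (13.5 CPM) the one with 874 CPM of squamous markers. The asparaginase difference was 1.18 (adjusted p = 1) without the 2 squamous libraries, 1.33 (adjusted p = 0.303) without the acinar library and 1.42 (adjusted p = 0.371) without the 3 mixed libraries. The sex difference was -1.78 (adjusted p = 0.0964), -1.92 (adjusted p = 0.114) and -2.03 (adjusted p = 0.199) in these edgeR fits, in that order. The part of those transcripts was not tested.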

How the results depend on the processing

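No paired analysis was possible because the labels give no shared replicate numbers, and those used here only name libraries in accession order. Counts of members called were compared over 29 alternatives. The fit without the 3 mixed libraries leaves replicate 3 as the only PBS library of 2 weeks. It has no 2-week sex term and tests 17188 genes, where the main fit tests 16213. The fit without the 2 squamous libraries leaves 8-week asparaginase replicate 3 alone in its group. Counts from these 2 fits are no like-for-like check of comparisons that use those groups. At 2 weeks (1 by the main test) asparaginase gave 0 on plain library totals, 0 without a sex term, 0 without the 3 mixed libraries, 0 without the 2 squamous libraries and 2 by DESeq2. At 8 weeks (0) it gave 6 on plain totals (19.2% of all genes were called), 1 with no low-count filter (1.75%) and 4 by DESeq2 (4.06%). At 16 weeks (2) it gave 6 by DESeq2, 1 with 1 sex term for all ages, 1 without the squamous libraries, and 0 without a sex term, without the mixed libraries or without the acinar library. At that age 0.234% of all genes were called by the main test, 1.98% by DESeq2 and 0.167% with 1 sex term. The share was 0.117% without a sex term and 0.0302% without the acinar library. The mean effect (7, where 5.41% of all genes were called) gave 2 without a sex term (3.26%) and 2 without the acinar library (1.21%). The fits without the mixed or the squamous libraries also called fewer on the mean effect, among members and among all genes. The joint test across ages (0) gave 2 by DESeq2. In PBS mice, 8 against 2 weeks (20) gave 11 without the mixed libraries, and 16 against 2 weeks (15) gave 23 on plain totals. For 16 against 8 weeks (1) the count was 3 by DESeq2 and 0 with median-ratio factors or without the mixed, squamous or acinar libraries. The sex comparison (9, where 12.9% of all genes were called) gave 22 on plain totals (75.6%) and 4 without the acinar library (5.22%). The cause of these shifts was not tested, and all-gene counts for most of these fits are given below.

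Leaving out 1 library at a time gave 0 to 1 members at 2 weeks, 0 to 1 at 8 weeks, 0 to 3 at 16 weeks, 2 to 7 on the mean effect, 0 to 0 in the joint test, 15 to 21 for 8 against 2 weeks, 8 to 18 for 16 against 2 weeks, 0 to 1 for 16 against 8 weeks and 3 to 10 by sex. The mean effect fell to 2 without 2-week asparaginase replicate 1 or 16-week asparaginase replicate 3, and to 3 when 16-week PBS replicate 3, or 8-week asparaginase replicate 1, was left out. By sex the count was 3 when 16-week PBS replicate 3 was left out, 4 for 16-week asparaginase replicate 3, and 5 for 8-week PBS replicate 2 as for 16-week asparaginase replicate 1. The count for 16 against 2 weeks fell to 8 without 16-week PBS replicate 3. Shares of all genes called are not given for these fits, so the shifts cannot be called particular to the members. Each arm has only 1 library of its rarer sex. Where that library was left out, the arm held 1 sex, and the sex term of its age came from the other arm alone.

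Of 2506 alternative values for 87 gene results, 2070 kept direction and call, 420 lost the call and 16 turned, all on plain library totals. For 16 against 2 weeks these were Scp2 -0.0473, Rxra -0.2957, Hsd17b4 -0.3228, Nr1h4 -0.1915, Abcb4 -0.4182 and Slco1b2 -0.2514. For 8 against 2 weeks they were Abcb4 -0.1115, Hsd17b4 -0.1264, Abcg2 -0.1963, Abcb11 -0.2644, Abcc4 -0.0512, Nr1h3 -0.3505, Hsd3b7 -0.2331 and Fgfr4 -0.1898. By sex they were Hsd17b4 -0.1353 and Acox2 -0.0128.

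Plain totals moved the median of all genes by 0.363 at 8 weeks, 0.247 at 16 weeks, 0.214 on the mean effect, -0.713 and -0.791 with age and -0.509 by sex. The share of called genes that were higher was then 92.6%, 99.2%, 99.4% and 97.2% for the 3 ages and their mean, against 75.7%, 52.5%, 81.6% and 47.1%. It was 3.3%, 2.9% and 24.4% for the PBS comparisons 8 over 2, 16 over 2 and 16 over 8 weeks, against 46.6%, 47.7% and 43.3%, and 1.2% against 37.8% by sex. With no low-count filter it was 71.9% at 8 weeks. All-gene calls by DESeq2 were 432, 659 and 321 at the 3 ages and 1525 on the mean effect, against 70, 59, 38 and 877 by edgeR. On plain totals they were 27, 3111, 178 and 4283, and without a sex term 6, 2, 19 and 528. Without the mixed libraries 0, 0 and 97 genes passed at 2 weeks, 8 weeks and on the mean, and 3243 for 8 against 2 weeks. Without the squamous libraries 30, 0 and 87 passed at 2 weeks, 8 weeks and on the mean, 40 for 16 against 8 weeks and 528 by sex. Without the acinar library 7, 5 and 201 passed at 8 weeks, 16 weeks and on the mean, 30 for 16 against 8 weeks and 865 by sex. By DESeq2 155 genes passed the joint test and 550 differed between 16 and 8 weeks, against 0 and 67. On plain totals 11939, 12319 and 41 passed in the PBS comparisons, against 5137, 4501 and 67, and 12251 by sex against 2090. With no low-count filter the counts were 114, 445 and 83 at the 3 ages, 28 in the joint test and 171 for 16 against 8 weeks. By limma-voom 169 passed at 2 weeks and 1 in the joint test, and with 1 sex term 25 passed at 8 weeks.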
